A study of Mus musculus with 6 samples.

Results

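Collagens, the receptors that bind them and the matrix proteins that fibroblasts secrete were followed in the cortex of newborn mice with and without Slc7a5, which encodes the light chain of the large neutral amino acid transporter LAT1. The module held 52 protein-coding genes of 52550 counted: 44 collagen chains, taken by their symbols (Col, a number, a and a number), and Ddr1, Ddr2, Dcn, Lum, Fn1, Fbln1, Postn and Igf2, taken by name. RNA with polyA tails was sequenced from 1 cortical hemisphere per library at postnatal day 2, on the C57BL6/J background. Mice of the knockout group carried 2 floxed Slc7a5 alleles and Cre driven from Emx1 (n = 3), and the controls carried the same floxed alleles and no Cre (n = 3), so the effects of Cre and of the loss of Slc7a5 cannot be told apart. The titles give the libraries of each genotype the letters A, B and C, and the series' description calls them biological replicates. Emx1-driven Cre acts in dorsal forebrain progenitors, and their progeny include excitatory neurons and astrocytes but not the fibroblasts, vessels or microglia of the cortex.

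Collagens are trimers of alpha chains wound into a triple helix. Fibrillar types I, II, III, V and XI form the cables of connective tissue, fibril-associated types decorate those cables, type IV forms the net of basement membranes, and type VI forms beaded filaments. Brain parenchyma is poor in fibrillar collagen. In the newborn cortex type I and III collagen are made mainly by fibroblasts of the meninges and of the larger vessels, and type IV collagen by endothelial and mural cells of the vessels and by cells of the pial surface. Ddr1 and Ddr2 are receptor tyrosine kinases that bind collagen, with Ddr1 found mainly in epithelia and glia and Ddr2 in mesenchymal cells.

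Gene counts per library were 8249436 to 10372582. Levels are given as CPM (counts scaled to library size with TMM factors), in the order A, B and C of each genotype, and levels of different members are compared as CPM per kilobase of transcript. Slc7a5 stood at 20.2, 40.7 and 26.1 CPM in the controls and 15.6, 9.37 and 11.4 CPM in the knockouts, so that the groups did not overlap (log2 change -1.25 ± 0.28 SE, adjusted p = 0.400, edgeR's quasi-likelihood test). The 10 projection neuron markers of the cortex summed to 3557 to 4470 CPM. Xist, transcribed from the inactive X in females, stood at 918 CPM in control B and 961 CPM in knockout B and at no more than 2.95 CPM elsewhere.

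The receptor Ddr1 had the highest level per length of the module in every library, at a mean of 27.3 CPM per kilobase (23.0 to 30.2 over the 6 libraries). Igf2, the fetal growth factor that fibroblasts, vessels and choroid plexus make, followed at a mean of 11.6 CPM per kilobase, and ranged from 3.88 to 17.8. Next came Col9a3, a chain of fibril-associated type IX collagen, at 9.77 CPM per kilobase, and Col4a1, a chain of the basement membrane net, at 8.53, and their ranges overlapped (7.55 to 11.7 and 7.11 to 10.4). Dcn (decorin, a small proteoglycan that binds fibrils), Col25a1 (a transmembrane collagen of neurons), Fn1 (fibronectin) and Col4a2 completed the upper 8, with means of 6.78, 6.16, 4.93 and 4.53 CPM per kilobase. Dcn alone among these 4 ranged over more than an order of magnitude, from 0.644 to 11.8.

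The summed level of all members was 421 to 654 CPM in the controls and 453 to 667 CPM in the knockouts, and these ranges overlapped. At the low end, 9 members did not pass the filter on low counts: Col4a3, Col6a6, Col9a1, Col10a1, Col17a1, Col20a1, Col24a1, Col28a1 and Lum. They had 0 to 45 counts over the 6 libraries and at most 1.24 CPM in any library. Col17a1, a transmembrane collagen of skin, had 0 counts in every library, which allows a level of up to 0.0517 CPM over all 6 (a floor of 3 counts). The remaining 43 members were tested. The filter was given the genotype groups, which set how many libraries must reach its count threshold. A gene can pass it through 1 group, so the counts below describe the 43 members and not all 52.

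**Figure D1:**
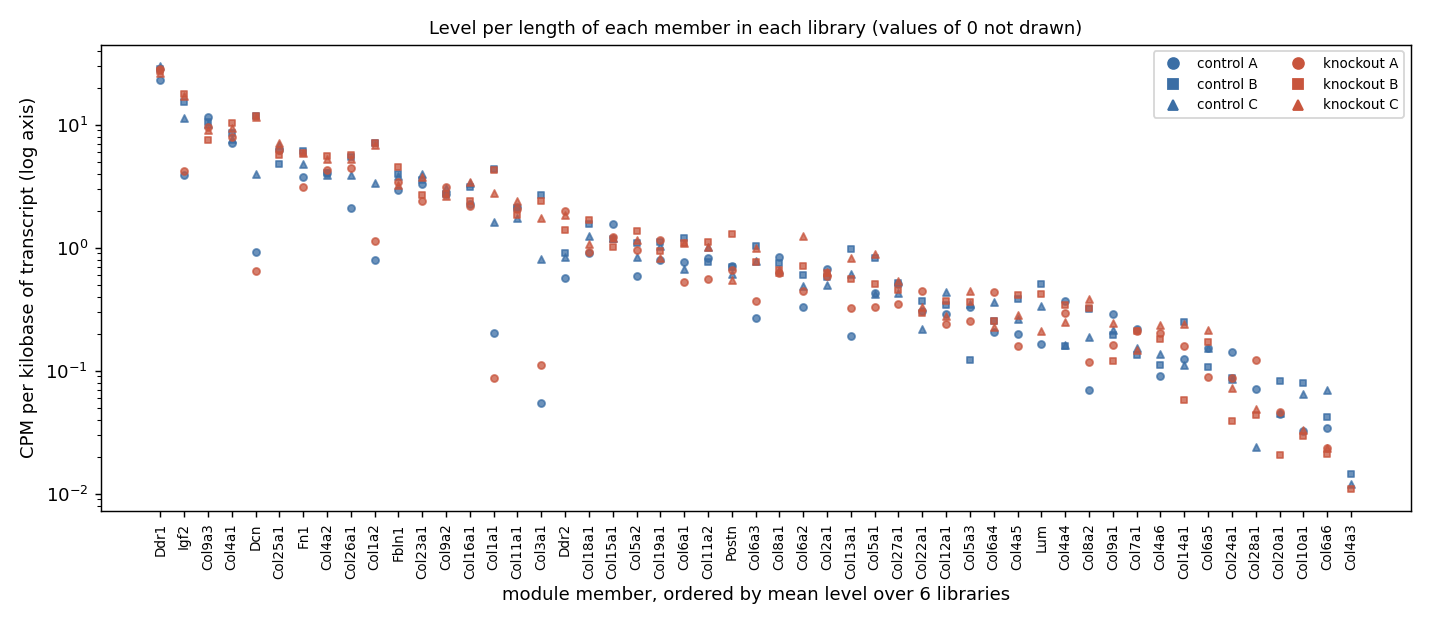
Level of each module member in each library, as CPM per kilobase of transcript on a log axis, with members ordered by their mean over the 6 libraries (blue, control; red, knockout; symbols give the letter). Ddr1 stands highest at 23.0 to 30.2, and the points of Dcn, Col1a1, Col1a2 and Col3a1 spread far apart, with the 2 libraries of letter A lowest.

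Between genotypes, the member that stood apart was Ddr2, the receptor for fibrillar collagen. Its level was 4.83, 7.81 and 7.23 CPM in the controls and 17.0, 11.96 and 15.9 CPM in the knockouts. All 3 knockouts lay above all 3 controls, by 3.51, 1.53 and 2.20 times within letters A, B and C. The counts behind these levels were 48, 63 and 71 reads in the controls and 165, 129 and 153 in the knockouts. The log2 change was 1.18 ± 0.21 (SE) with an adjusted p of 0.0637 in edgeR's quasi-likelihood test with genotype alone, rank 8 of 14913 genes by p. With the letter as a block, which the correlation of same-letter libraries allowed, the adjusted p was 4.55e-04, and in DESeq2 with genotype alone it was 0.00345. In DESeq2 with the letter as a block it was 0.0373, and in edgeR with genotype alone and counts on either strand it was 0.110. In bulk tissue more cells of a type and more RNA per cell cannot be told apart.

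The call for Ddr2 in the fit with the letter was the only one in the module, 1 of 43, where 0.845% of all genes were called (126 of 14913), and 0.329% were called as higher in the knockout. With genotype alone, 0 of 43 members and 0.0335% of all genes (5 of 14913) were called by edgeR, 0.0201% as higher in the knockout. DESeq2 called 1 of the members, Ddr2, and 0.139% of all genes. At an unadjusted p under 0.05, edgeR's genotype fit had 3 of 43 members, Ddr2, Col4a2 and Col9a3 (6.98%), beside 1044 of all 14913 genes (7.00%). Without the pair of letter A, B or C, the log2 change of Ddr2 was 0.89, 1.45 or 1.20 and its adjusted p in edgeR's test 0.473, 0.109 or 0.358, where only 2 libraries of each genotype were left. In edgeR's fit with the letter, leaving out the same pairs gave an adjusted p of 0.0118, 3.69e-07 and 3.54e-04, also from only 2 libraries of each genotype. Those fits called 1.52%, 1.08% and 0.512% of all genes, against 0.845% with all letters.

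Ddr2 lies on chromosome 1 of GRCm38 (169972307 to 170110762, minus strand). Its neighbours on the same strand, Hsd17b7 and Uap1, had log2 changes of -0.28 and -0.25, with adjusted p of 0.737 and 0.766 in edgeR's test, opposite in sign to Ddr2. Reads on the opposite strand of Ddr2 were 2.02% of its reads (13 of 642). Ddr1, by contrast, stood at 89.3, 111 and 117 CPM in the controls and 110.1, 106 and 102 CPM in the knockouts, and its groups overlapped (log2 change 0.0060 ± 0.11 SE, adjusted p = 0.997, edgeR). The ratio of Ddr2 to Ddr1 per kilobase was 0.0244 to 0.0318 in the controls and 0.0507 to 0.0706 in the knockouts, so Ddr2 remained the scarcer receptor in every library.

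Cell type markers were read beside Ddr2. The summed level of 13 endothelial markers, among them Cldn5, Slco1c1 and Kdr, was 235 to 274 CPM in the controls and 280.1 to 288 CPM in the knockouts. The sum of 12 mural markers, among them Rgs5, Cspg4 and Notch3, was 138 to 147 and 154 to 172 CPM, so that neither vascular sum overlapped between genotypes. That of 8 Cajal-Retzius markers, among them Cacna2d2, Reln and Calb2, was 340.2 to 380 CPM in controls and 391 to 456 CPM in knockouts, and that of 10 projection neuron markers, among them Neurod2, Bcl11b and Nrgn, 4118 to 4470 and 3557 to 4043. Microglia and macrophage markers, among them Cx3cr1, C1qa and Csf1r, overlapped, at 130.3 to 174 and 167 to 195 CPM. Of their 12 tested markers, 11 had a higher fitted value in the knockout, against 7490 of all 14913 genes. So had 8 of 8 Cajal-Retzius, 10 of 13 endothelial and 6 of 8 mural markers tested. At an unadjusted p under 0.05, edgeR's genotype fit had 3 of the 12 microglia and macrophage markers and 1 of the 13 endothelial ones, beside 7.00% of all genes. It had 0 of the mural and Cajal-Retzius markers. No marker of the vascular, Cajal-Retzius or microglial lists was called with genotype alone or with the letter as a block. Of the 10 projection neuron markers, 4 had a higher and 6 a lower fitted value in the knockout (median log2 change -0.10). With genotype alone 1 was called and with the letter as a block 3, where 0.0335% and 0.845% of all genes were called. Among those called, Nrgn fell in both fits (log2 change -0.69 ± 0.11 SE, adjusted p = 0.0196 with genotype alone, edgeR), and Slc17a7 (-0.48) fell in the fit with the letter (adjusted p = 0.0160, edgeR). The 16 markers of meningeal fibroblasts summed to 14.9 and 19.3 CPM in control and knockout A, against 221 to 467 CPM in the other 4 libraries. Of the 12 tested, 11 had a higher fitted value in the knockout, against 7490 of all 14913 genes, and none was called. The part of these cell types in the Ddr2 difference was not tested.

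**Figure D2:**
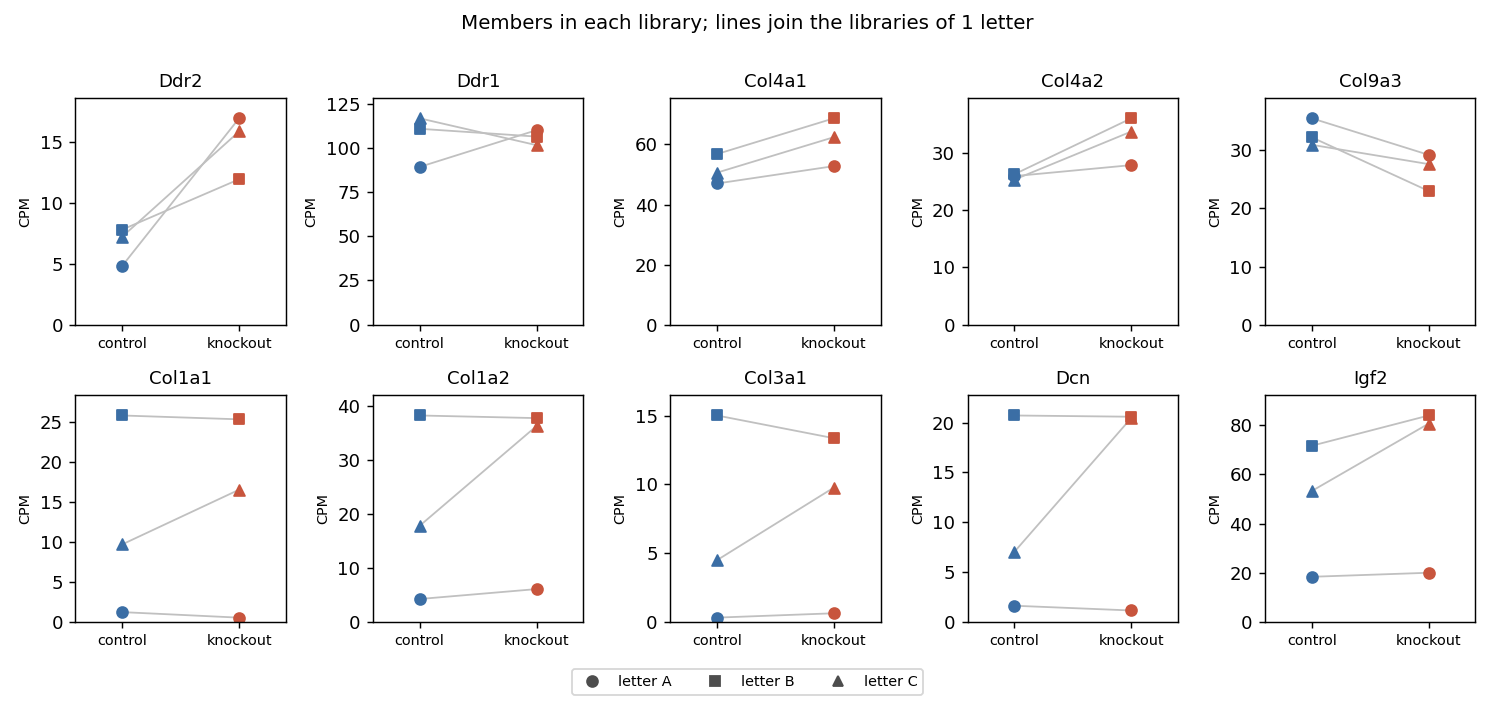
CPM of 10 members in each library, with control on the left and knockout on the right of each panel, each axis starting at 0, and lines joining the libraries of 1 letter. Ddr2 is above its controls in all 3 knockouts, whereas Col1a1, Col1a2, Col3a1, Dcn and Igf2 are ordered by letter, with both A libraries lowest.

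Of the 43 tested members, 32 were higher in the knockout and 11 lower on the fitted scale, with a median log2 change of 0.071. Over all 14913 genes 7490 were higher and the median was 0.0011. The genotype groups did not overlap for 3 members with the knockout higher (Ddr2, Col4a2 and Col4a6), against 5.89% of all genes, and for 2 with the knockout lower (Col9a3 and Col8a1), against 6.28%. The 5 of 43 is near the share over all genes.

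**Figure D3:**
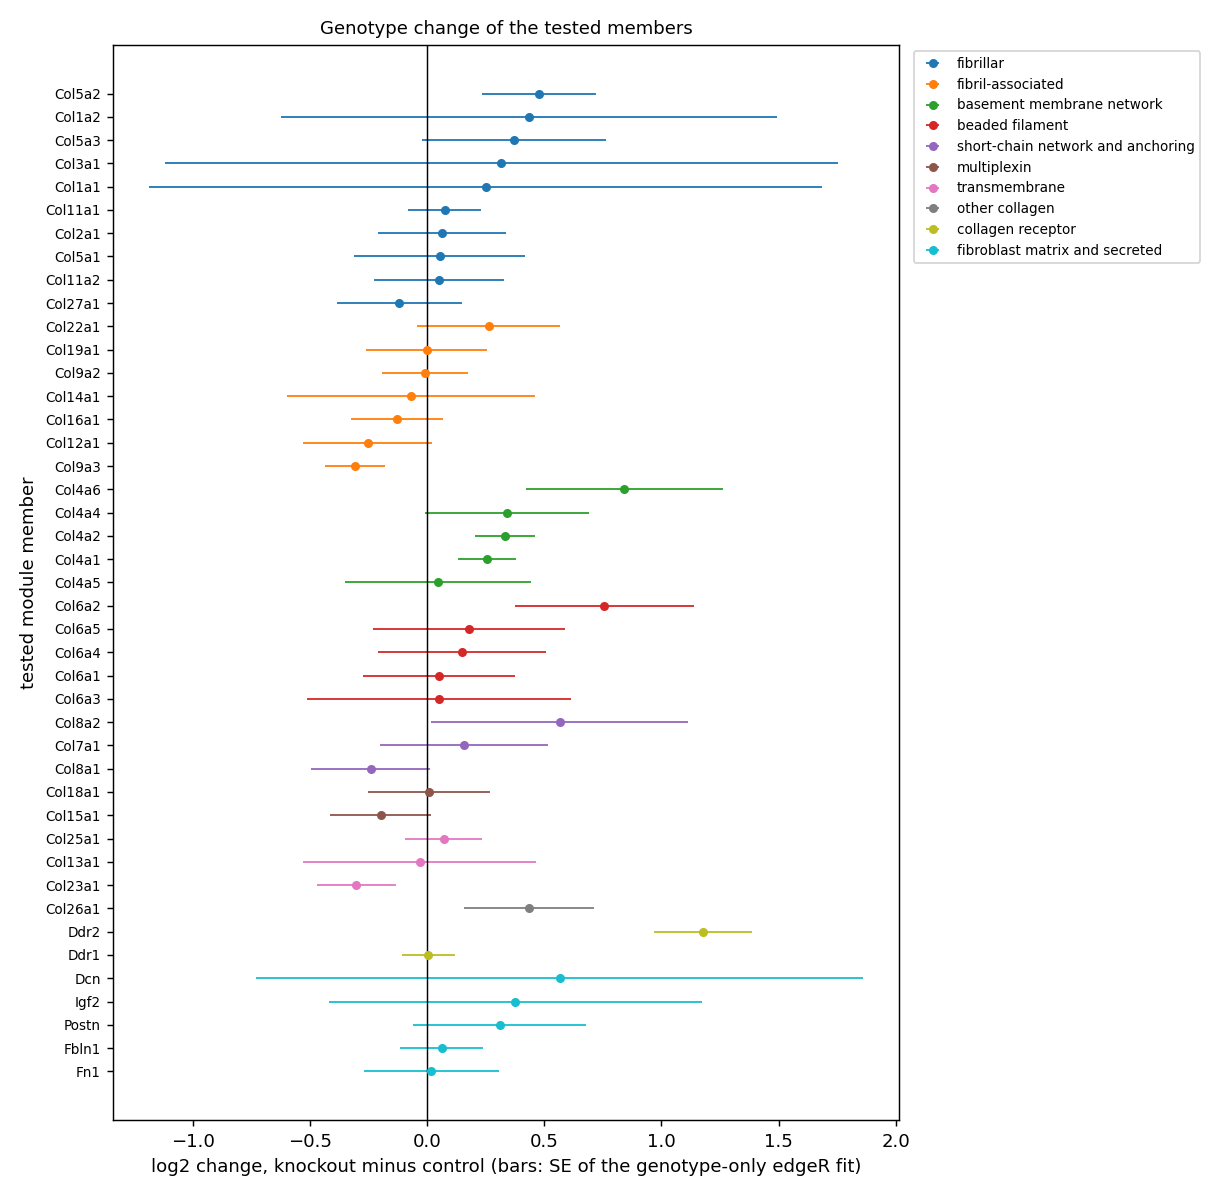
Log2 change (knockout minus control, horizontal axis) of the 43 tested members with its SE, derived from the F of the genotype-only edgeR fit, grouped by structural role in colour. Ddr2 lies farthest to the right at 1.18, all 5 tested type IV chains lie right of 0, and the longest bars belong to Col1a1, Col3a1, Dcn and Col1a2.

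Type IV collagen is built from 3 kinds of trimer, the common one of Col4a1 and Col4a2, and 2 made from Col4a3 to Col4a6. All 5 tested chains were higher in the knockout, with log2 changes of 0.047 to 0.84 and a median of 0.33, but none was called (adjusted p 0.633 to 0.993, edgeR), and Col4a5 turned to -0.0027 with the letter as a block. Col4a2 stood at 26.0, 26.3 and 25.4 CPM in the controls and 27.9, 36.1 and 33.8 CPM in the knockouts (log2 change 0.33 ± 0.13 SE). Col4a1 stood at 47.0, 56.8 and 50.6 CPM in the controls and 52.8, 68.7 and 62.4 CPM in the knockouts (0.25 ± 0.12). Each knockout was above the control of its letter for both chains, by 1.07 to 1.37 times for Col4a2 and 1.12 to 1.23 times for Col4a1, although the groups overlapped for Col4a1.

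Col4a1 and Col4a2 are transcribed away from each other, from starts 21 bases apart on chromosome 8 of GRCm38 (11312826 on the minus strand and 11312805 on the plus strand). By these positions the start regions of the genes overlap on opposite strands. The ratio of Col4a1 to Col4a2 per kilobase was 1.76 to 2.11 over the libraries, with a mean of 1.89 ± 0.12 (SD, n = 6). The other pairs are also transcribed away from each other, but their annotated starts do not overlap. Those starts are 1309 bases apart for Col4a6 and Col4a5 on chromosome X and 72 bases apart for Col4a4 and Col4a3 on chromosome 1. Per kilobase their means were 0.160 CPM for Col4a6, 0.283 for Col4a5, 0.262 for Col4a4 and 0.0062 for Col4a3, below the lowest library of Col4a1 and of Col4a2. Col4a6, of smooth muscle and epithelial basement membranes, had 0.604, 0.744 and 0.917 CPM in the controls and 1.34, 1.21 and 1.56 CPM in the knockouts, without overlap, on 6 to 15 reads per library (log2 change 0.84 ± 0.42 SE, adjusted p = 0.728, edgeR).

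The partner of Col4a6, Col4a5, stood at 1.31, 2.48 and 1.73 CPM in the controls and 1.03, 2.69 and 1.87 CPM in the knockouts. Col4a4 stood at 3.72, 1.61 and 1.63 CPM in the controls and 2.98, 3.43 and 2.49 CPM in the knockouts. The genotype groups overlapped for Col4a5 and for Col4a4. Col4a3, which shares its start region with Col4a4, had 3 reads in all libraries together, 1 each in controls B and C and knockout B. The vascular marker sums above were higher in the knockouts as well, and their part in the type IV values was not tested.

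All 5 tested type VI chains had a higher fitted value in the knockout (median 0.15 on the log2 scale), and none was called. Col6a2 had the largest change of them, at 1.31, 2.36 and 1.94 CPM in the controls and 1.75, 2.78 and 4.88 CPM in the knockouts (0.76 ± 0.38 SE, adjusted p = 0.734, edgeR). Its partner Col6a1 stood at 3.12, 4.96 and 2.75 CPM in the controls and 2.16, 4.45 and 4.47 CPM in the knockouts, and its log2 change was 0.051. For both chains the highest ratio of knockout to control was in letter C, at 2.52 times for Col6a2 and 1.62 times for Col6a1. The third chain of the common trimer, Col6a3, stood at 2.72, 10.4 and 7.94 CPM in the controls and 3.70, 7.79 and 10.1 CPM in the knockouts, with both A libraries lowest. The meningeal fibroblast markers were also lowest in letter A, at a sum of 14.9 and 19.3 CPM. They summed to 382 CPM in control B and 406 CPM in knockout B, and to 221 CPM in control C and 467 CPM in knockout C. Of these markers 11 of 12 tested were higher in the knockout (median log2 change 0.55), against 7490 of all 14913 genes, and none was called. Their part in the type VI values was not tested. The chains that can replace Col6a3 had means of 0.288 (Col6a4), 0.147 (Col6a5) and 0.0358 (Col6a6) CPM per kilobase, against 0.703 for Col6a3. Col6a4 stood at 1.51, 1.86 and 2.65 CPM in the controls and 3.19, 1.85 and 1.66 CPM in the knockouts, and Col6a5 at 1.41, 0.992 and 1.43 CPM in the controls and 0.823, 1.58 and 1.97 CPM in the knockouts. Col6a6, which was not tested, had 0.302, 0.372 and 0.611 CPM in the controls and 0.206, 0.185 and 0.208 CPM in the knockouts, on 2 to 6 reads per library.

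Of the fibril-associated collagens, 6 of 7 tested chains had a lower fitted value in the knockout (median -0.068 on the log2 scale), and none was called. Among the 6, Col9a2 was at -0.0093 and Col19a1 at -0.0017, and Col19a1 turned above 0 with RLE size factors. Col9a3 stood at 35.5, 32.3 and 31.0 CPM in the controls and 29.2, 23.0 and 27.6 CPM in the knockouts. Every knockout was below every control, by a log2 change of -0.31 ± 0.13 SE, with an adjusted p of 0.671 in edgeR's test. Per kilobase, the means of Col9a3, Col9a2 and Col9a1 were 9.77, 2.84 and 0.204 CPM. Col9a2 had 7.94 to 8.96 CPM in controls and 7.69 to 9.16 CPM in knockouts, and Col9a1 stayed below the filter at 0.464 to 1.11 CPM.

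Transmembrane collagens are made by neurons among other cells. Col23a1 stood at 18.7, 20.2 and 22.5 CPM in the controls and 13.5, 15.3 and 21.1 CPM in the knockouts, lower within each letter but with overlap (-0.30 ± 0.17 SE, adjusted p = 0.767, edgeR). Col25a1, which motor neurons need to innervate muscle, stood at 16.4, 12.7 and 18.1 CPM in the controls and 16.4, 14.9 and 18.5 CPM in the knockouts, and its groups overlapped. Col13a1, the third tested, ranged from 0.604 to 3.10 CPM. Among the remaining non-fibrillar chains, Col26a1 had 5.74, 14.9 and 10.7 CPM in the controls and 12.04, 15.4 and 14.4 CPM in the knockouts, with a log2 change of 0.43. Col8a1, of endothelial and corneal membranes, was lower without overlap, at 3.36 to 4.33 CPM in controls and 3.19 to 3.34 CPM in knockouts (-0.24 ± 0.26 SE, adjusted p = 0.900, edgeR). Col15a1 and Col18a1, the multiplexins of vascular basement membranes, had log2 changes of -0.20 and 0.0069, and the latter turned below 0 with the letter as a block and in DESeq2.

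Among the 10 tested fibrillar chains, 9 were higher in the knockout and 1, Col27a1, lower, with a median log2 change of 0.16. None was called (adjusted p 0.736 to 0.991, edgeR). Col5a2 had the smallest p, at 3.93, 7.19 and 5.60 CPM in the controls and 6.38, 9.00 and 7.69 CPM in the knockouts (0.48 ± 0.24 SE). It was 1.25 to 1.63 times its control within every letter. Its partner Col5a1 stood at 3.62, 6.95 and 3.56 CPM in the controls and 2.78, 4.27 and 7.48 CPM in the knockouts, lower within letters A and B and higher within C. Col5a3 stood at 2.01, 0.744 and 2.14 CPM in the controls and 1.54, 2.23 and 2.70 CPM in the knockouts. The cartilage chains were level: Col2a1 had 2.55 to 3.42 CPM, Col11a1 13.4 to 18.3 CPM and Col11a2 2.98 to 6.03 CPM over the 6 libraries, with log2 changes between 0.048 and 0.076.

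Among the tested fibrillar chains, those of types I and III had the widest spread between libraries, with a highest over lowest level of 50.1 times for Col1a1, 49.7 for Col3a1 and 9.07 for Col1a2, and outside the collagens Dcn had 18.3. These chains were singled out after their values were seen. Col1a1 stood at 1.21, 25.8 and 9.68 CPM in the controls and 0.515, 25.3 and 16.5 CPM in the knockouts. Col3a1 stood at 0.302, 15.0 and 4.48 CPM in the controls and 0.617, 13.4 and 9.77 CPM in the knockouts. Col1a2 stood at 4.23, 38.3 and 17.8 CPM in the controls and 6.07, 37.8 and 36.4 CPM in the knockouts. The 2 libraries of letter A were lowest for all 3 genes, and the mean of letters B and C over that of letter A was 22.4, 23.2 and 6.33 times for Col1a1, Col3a1 and Col1a2. Within letter B control and knockout were nearly equal, at 0.890 to 0.987 times, and within letter C the knockout was 1.71 to 2.18 times its control.

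An F-test of the letter in the fit of genotype and letter (edgeR, 2 degrees of freedom), chosen after these values were seen, called 7 of the 43 members against 3.15% of all genes (470 of 14913). They were Col1a1, Col1a2, Col3a1, Col6a3, Dcn, Fn1 and Igf2, with adjusted p from 1.26e-13 for Igf2 to 0.0186 for Dcn. What the letters mark is not given in the labels. Both A libraries lay below the other 4 for 13 members, against 8.36% of all genes. These were the 7 and Col4a5, Col6a2, Col8a2, Col13a1, Col16a1 and Col18a1. They lay above the other 4 for Col7a1 and Col15a1, against 8.41%. Ddr2 did not pass the test of the letter (adjusted p = 0.892, edgeR).

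The start regions of 2 of these fibrillar genes are shown because the genes differed together between letters. Bases before the RefSeq start on GRCm38.p6 are printed, without any annotated exon, in lower case with matches to the motifs in capitals. Searched were CCAAT (the box bound by NF-Y), TATAAA (the TATA box), GGGCGG (the GC box) and TGATGNAA (the core bound by ATF4 with C/EBP in the amino acid response), on both strands and not overlapping one another. For Col1a2, 127 of the 250 bases before the start at 4505618 lie in annotated exons and are left out, the bases next to the start among them, and the 1 CCAAT of that window lies outside the stretch shown. That start is inside the GENCODE gene, which begins at 4504814. The Col1a2 stretch, at chr6:4505370-4505492 on the plus strand, holds GGGCGG at bases 44 to 49 and 61 to 66, and the Col3a1 stretch, at chr1:45311288-45311537 on the plus strand, holds TATAAA at bases 134 to 139, counted from 1 at the first base shown. The Col3a1 stretch ends at the base before the start at 45311538, so its TATAAA lies near the middle of the 250 bases and not next to the start. Whether any match works as the named element was not tested.
Col1a2: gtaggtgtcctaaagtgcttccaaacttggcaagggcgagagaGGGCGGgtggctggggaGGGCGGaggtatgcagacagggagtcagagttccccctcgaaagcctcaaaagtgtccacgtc
Col3a1: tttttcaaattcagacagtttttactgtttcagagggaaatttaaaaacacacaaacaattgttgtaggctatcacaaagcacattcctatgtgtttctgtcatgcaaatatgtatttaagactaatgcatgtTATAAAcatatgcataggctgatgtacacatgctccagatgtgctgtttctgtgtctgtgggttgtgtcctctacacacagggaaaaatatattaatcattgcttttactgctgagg
The shares are a description of letters in the window. RefSeq windows were matched for 40 of the 52 symbols, 51 windows of 250 bases before the start. GGGCGG was in 54.9% of them and in 32.7% of all 32851 windows of that length, TATAAA in 13.7% and 12.4%, CCAAT in 27.5% and 33.8%, and TGATGNAA in 0 and 3.45%.

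The fibroblast proteins outside the collagens showed the same order of letters. Dcn stood at 1.61, 20.7 and 7.03 CPM in the controls and 1.13, 20.6 and 20.5 CPM in the knockouts. Letters B and C together had 12.5 times the mean of letter A, and within letter C the knockout had 2.91 times its control. Igf2 stood at 18.3, 71.7 and 53.3 CPM in the controls and 20.0, 84.0 and 80.7 CPM in the knockouts, 3.78 times more in letters B and C than in A. Fn1, also made by endothelial cells, stood at 31.5, 50.7 and 40.2 CPM in the controls and 25.8, 48.7 and 49.0 CPM in the knockouts, 1.65 times more. Lum, the keratan sulfate relative of Dcn, was not tested and had 0.403, 1.24 and 0.815 CPM in the controls and 0, 1.02 and 0.519 CPM in the knockouts, on 0 to 11 reads. By genotype the log2 changes of Dcn, Igf2 and Fn1 were 0.57, 0.38 and 0.018, with adjusted p of 0.957 to 0.997 in edgeR's test, and that of Fn1 turned to -0.010 with the letter as a block.

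Fbln1 (fibulin 1) and Postn (periostin) did not follow that order. Fbln1 stood at 10.8, 14.6 and 14.0 CPM in the controls and 12.5, 16.5 and 11.9 CPM in the knockouts, and Postn at 1.91, 1.86 and 1.63 CPM in the controls and 1.75, 3.43 and 1.45 CPM in the knockouts. Groups overlapped for both genes, and neither passed the test of the letter (adjusted p 0.427 and 0.571, edgeR).

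Markers of meningeal fibroblasts had the letter order too. All 12 tested of the 16 markers were called by the test of the letter, and all 16 were lower in both A libraries than in the other 4. Their summed level was 14.9, 382 and 221 CPM in the controls and 19.3, 406 and 467 CPM in the knockouts. Ptgds, the prostaglandin D synthase of the leptomeninges, stood at 2.62, 295 and 165 CPM in the controls and 2.06, 319 and 356 CPM in the knockouts. Mgp and the transporter Slc6a13 stood at 3.42 to 4.22 and 0.201 to 0.720 CPM in letter A and at 13.2 to 28.1 and 10.9 to 23.4 CPM in letters B and C. Of the 12 microglia and macrophage markers, 3 were called by the test of the letter, Mrc1, Pf4 and Cd163, which mark macrophages of the brain's borders. Of the 8 mural and 13 endothelial markers tested 1 each was called, Vtn and Abcb1a. Over all 14913 genes tested, the test of the letter called 3.15%, and 8.36% lay lower in both A libraries than in the other 4. The part of meningeal tissue in the letter differences was not tested.

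Markers of other tissues of the head were read as well. Those of skin, bone, cartilage and muscle summed to 16.0 to 16.2 CPM in controls and 13.1 to 15.3 CPM in knockouts, with Acta1, Acan and Myh3 among them, and Matn1 had 0 counts throughout. Choroid plexus markers, among them Ttr, Prlr and Otx2, summed to 9.36 to 44.3 CPM in 5 libraries and to 162 CPM in control B, where Ttr alone stood at 144 CPM. Erythroid markers, among them Hbb-bs, Hbb-bt and Hba-a1, summed to 388 to 546 CPM in controls and 399 to 479 CPM in knockouts.

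The chains of type I collagen did not keep a constant ratio. Col1a1 over Col1a2 per kilobase was 0.258, 0.607 and 0.490 in the controls and 0.0764, 0.603 and 0.410 in the knockouts, lowest in the 2 A libraries, where Col1a1 had 12 and 5 reads and Col1a2 42 and 59. For comparison, the ratio of Col4a1 to Col4a2 varied by an SD of 0.12 around 1.89.

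**Figure D4:**
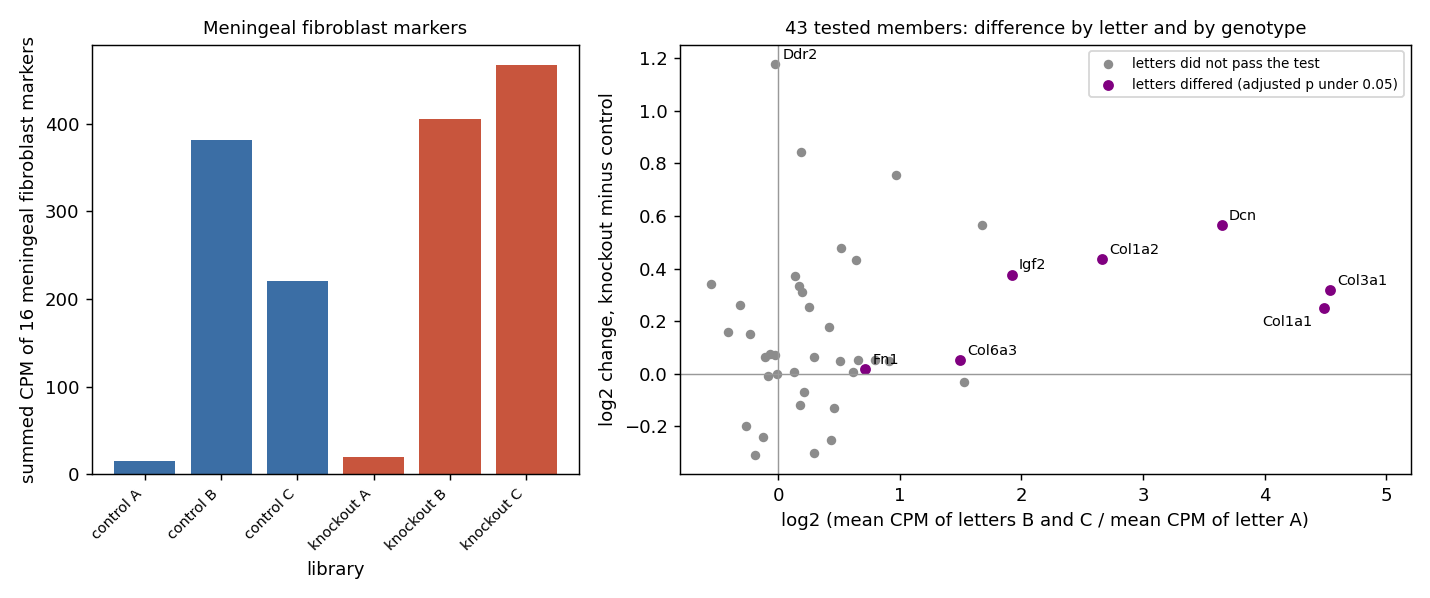
Left, summed CPM of the 16 meningeal fibroblast markers in each library (bars start at 0). Right, each tested member by the log2 ratio of its mean level in letters B and C to that in letter A (horizontal) and by its log2 change between genotypes (vertical), with purple for the 7 members called by the test of the letter. The purple members lie to the right and Ddr2 lies near 0 on the horizontal axis at a genotype change of 1.18.

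The genotype values of these genes turned on which letters entered. In the fit with the letter, leaving out the pair of letter A called Dcn (log2 change 0.69, adjusted p = 0.0260, edgeR) beside Ddr2, 2 members where 1.52% of all genes were called (228). Leaving out the pair of letter B called Col1a2 (0.89, 0.00129), Dcn (1.13, 0.0395) and Col26a1 (0.72, 0.0494, edgeR) beside Ddr2, 4 members where 1.08% of all genes were called (161). With all letters, their adjusted p in that fit was 0.186 for Col1a2, 0.609 for Dcn and 0.217 for Col26a1. Without the pair of letter C, Ddr2 was the 1 member called, beside 0.512% of all genes (77). The summed meningeal markers of letter C were 467 CPM in the knockout and 221 CPM in its control, and their part in these calls was not tested.

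Genes that make, modify and sense collagen were read from lists chosen for function. No gene of the 5 lists was called by genotype in either edgeR fit. With genotype alone, 5 of their 84 tested genes had an unadjusted p under 0.05 (5.95%), beside 7.00% of all genes. Of the 25 collagen processing enzymes tested, 11 were higher and 14 lower, with a median log2 change of -0.015. P4ha1, the catalytic subunit of prolyl 4-hydroxylase, stood at 17.2, 20.7 and 20.2 CPM in the controls and 15.0, 15.1 and 13.4 CPM in the knockouts, without overlap (log2 change -0.41 ± 0.15 SE, adjusted p = 0.553, edgeR). Loxl2, a lysyl oxidase that crosslinks collagen, had a log2 change of -0.87 with overlap. Serpinh1, the chaperone of procollagen, Lox and Pcolce, the enhancer of procollagen C-proteinase, were called by the test of the letter.

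Of 7 other collagen receptors tested, 5 were higher, with a median log2 change of 0.14. Mrc2, the endocytic collagen receptor, had 0.403, 0.744 and 1.63 CPM in the controls and 1.13, 1.76 and 2.39 CPM in the knockouts (0.91 ± 0.48 SE). Itga1, the collagen-binding integrin subunit of vessels, had a log2 change of 0.25. Of 26 other matrix genes 21 were higher, with a median of 0.098. Prelp, which anchors basement membranes, had 0.201 to 0.744 CPM in the controls and 1.04 to 1.23 CPM in the knockouts, without overlap, and Nid2 (nidogen 2), which links laminin to type IV collagen, 3.82 to 6.21 CPM and 5.76 to 9.37 CPM (log2 changes 1.35 ± 0.53 and 0.54 ± 0.25 SE, adjusted p 0.635 and 0.708, edgeR). Fmod and Ogn, fibril-binding relatives of Dcn, were called by the test of the letter. With the letter as a block, Ogn had a log2 change of 1.45 between genotypes and stood just above the threshold (adjusted p = 0.0522, edgeR).

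Matrix proteases and their inhibitors were 5 higher and 8 lower of 13 tested (median -0.034), and those of smallest p were Timp2 (-0.23) and Mmp15 (-0.22). Receptors and binding partners of Igf2 were 7 higher and 6 lower of 13 tested (median 0.0036), with Igfbp7 at 0.35 and the receptor Igf1r at 0.16. H19, the noncoding neighbour of Igf2 in the same imprinted locus, stood at 14.9, 44.7 and 38.7 CPM in the controls and 15.4, 46.7 and 51.3 CPM in the knockouts, and was called by the test of the letter together with Igfbp2. For H19, as for Igf2, both A libraries lay below the other 4.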

How the data were processed

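Each library has 1 table of unnormalised read counts per gene, deposited as written by STAR. The aligner STAR (2.5.4) and the genome builds (GRCm38, mm10) are as listed per the submitters' processing notes. The annotation and any filter on reads: not given in the sources used here. The column of counts on the strand of the first read was used (17.5 to 19.2 times the opposite strand). Summary lines were left out, of which reads outside exons were 22.5 to 27.9% of mapped reads. That share was 22.5 to 26.5% in the controls and 27.4 to 27.9% in the knockouts, without overlap. Its part in the genotype values was not tested. Symbols, coordinates and transcript lengths (the transcript with the longest coding sequence) came from GENCODE M21, which held 52403 of 52550 identifiers.

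Genotypes were compared in R 4.3.3 with edgeR 4.0.16: filterByExpr (14913 genes), TMM factors 0.979 to 1.04, a robust two-sided quasi-likelihood F-test with Benjamini-Hochberg adjustment over all genes tested and a threshold of 0.05. DESeq2 1.42.0, RLE size factors, other filters, counts on either strand, a block by letter and leaving out libraries or pairs were alternatives. Each SE given for edgeR was derived from its test, as the absolute log2 change divided by the square root of F. The fits were tested on simulated data.

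Deviations from the group means were correlated across genes: r was 0.417 for the libraries of letter A, 0.342 for B and 0.211 for C, and no higher than -0.0310 across letters. Deviations were taken from each genotype's own mean, so positive values within letters force negative ones across letters on average. By the values within letters the letters pair the libraries, although no label states their meaning. The members and lists were chosen with earlier results of these data known. Values in every library are given for members called, the 8 highest per length, the 8 of smallest p, the 8 named genes and partner chains; from each list, called genes or the 2 of smallest p (for markers, the 3 highest in CPM, and those called by genotype) are named. Some genes that this rule names are not reported here.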

Additional observations from a re-analysis of the deposited data

How the results depend on the processing

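Of the 26 members with full values, 11 kept the direction of their genotype change under each alternative run for single genes, Ddr2, Col4a1, Col4a2 and Col9a3 among them, and 15 reversed in at least 1. Ddr2 had an adjusted p of 0.0600 to 0.181 in edgeR when 1 library was left out. Depth limits the scarce chains, several of which rest on under 20 reads per library. The cause of the reversals was not tested.

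The count of genes called over all genes was 5 in the genotype fit. It was 126 with the letter as a replicate block and 228, 161 and 77 in that paired fit without letters A, B and C, 26 in DESeq2, 25 in DESeq2 with the block, 71 without the filter, 0, 2 and 10 without the pair of letters A, B and C, and 1 to 9 when 1 library was left out. Module members called were 0 in the genotype fit, 1 with the block, 2, 4 and 1 in the blocked fit without letters A, B and C, and 1 each in DESeq2, in DESeq2 with the block and without the filter. With all 6 libraries, the block in edgeR changed no call of a member other than that of Ddr2. Without the pair of letter A, B or C, the fit with genotype alone called 0 members. With the block those fits called Ddr2, and some of them also Dcn, Col1a2 or Col26a1. The median log2 change of tested members, 0.071, ranged from -0.039 to 0.28 when 1 library was left out (lowest without control A, highest without knockout A). Genes that differed between letters numbered 470, 715 without the filter, and 356 to 1566 when 1 library was left out (highest without control B).

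When 1 library was left out, log2 changes that reversed ranged from -0.49 to 1.39 for Col1a1, -0.056 to 1.29 for Col1a2, -0.30 to 1.74 for Col3a1, -0.056 to 0.18 for Col25a1, -0.32 to 0.33 for Col4a5, -0.40 to 0.43 for Col5a1, -0.11 to 0.34 for Col6a1, -0.35 to 0.44 for Col6a3, -0.19 to 0.41 for Col6a4, -0.089 to 0.45 for Col6a5, -0.10 to 0.083 for Ddr1, -0.099 to 0.15 for Fbln1, -0.14 to 0.26 for Fn1, -0.018 to 0.79 for Igf2 and -0.16 to 0.53 for Postn. Without the pair of letter C the values were -0.016 for Col1a1, -0.073 for Col3a1, -0.56 for Col5a1, -0.27 for Col6a1, -0.16 for Col6a3, -0.0036 for Col6a5 and -0.13 for Fn1. Without the pair of letter A they were -0.030 for Col6a3, -0.36 for Col6a4 and -0.12 for Ddr1, and without the pair of letter B -0.063 for Col4a5, -0.015 for Col6a5, -0.014 for Fbln1 and -0.14 for Postn. With the block they were -0.0027 for Col4a5 and -0.010 for Fn1.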
